A study of Homo sapiens with 16 samples.

Results

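The step between 3 h and 6 h of phorbol ester treatment was followed in K562 cells, a human cell line established from a chronic myeloid leukaemia that carries erythroid features. Cells were wild type and were given 25 nM phorbol 12-myristate 13-acetate (PMA), an activator of protein kinase C that drives this line towards a megakaryocyte-like state. The libraries labelled 3 h and 6 h were chosen, 2 at each time, which makes 4 of the 16 RNA-seq libraries of a course with 8 times: before PMA (0 h), early (0.5 and 1.5 h), the hours studied here, and late (24, 48 and 72 h). Both groups carry the same genotype and the same PMA dose, so they differ in the labels by time in PMA only. The untreated 0 h libraries and the remaining times appear below only where they place a gene of this step in the course. All libraries come from the same line, nothing in the labels says that replicates came from separate cultures, and the p-values therefore measure the spread between these samples, which may be technical.

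Protein kinase C signals through the ERK pathway to transcription factors of the AP-1 and EGR families, which are themselves made within minutes to hours as immediate-early gene products. Their targets follow as secondary response genes, among them cytokines, matrix proteases, integrins and cytoskeletal proteins. Megakaryocytes and red cells share a progenitor, in which GATA1, NFE2 and their partners sustain both programmes, and loss of erythroid genes accompanies the megakaryocytic turn of K562.

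The 4 libraries held 42909089 and 32630167 estimated reads at 3 h, and 27285773 and 34125287 at 6 h, against 27285773 to 54056289 over the whole course. Each of the 4 was nearest to its own replicate. The root mean square log2 difference was 0.535 between the 3 h replicates and 0.482 between the 6 h replicates, and 0.882 to 0.914 across the step. The 9 markers of K562 tested were present with summed levels of 2357 and 1753 CPM (read counts scaled to library size) in the 3 h libraries and 2073 and 1804 CPM in the 6 h libraries. The 6 lymphoid markers tested summed to between 12.8 and 18.1 CPM, and CD2, CD3E, CD8A and MS4A1 fell under the count filter. The 12 monocyte and macrophage markers tested summed to 192.2 and 183.6 CPM before the step and 182.4 and 209.1 CPM after it, and the 6 fibroblast and epithelial markers to between 83.1 and 97.1 CPM. The monocyte sum joins opposite movements. By the test given below, 2 of the 12 (16.7%) were called higher at 6 h and 3 (25%) lower, against 19% and 22.1% of all genes. RNA came from whole cultures, in which fewer cells of a type and less RNA per cell cannot be told apart.

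Of 17559 genes tested, 7231 (41.2%) differed between 6 h and 3 h at an adjusted p under 0.05 (edgeR quasi-likelihood test with Benjamini-Hochberg adjustment). Of all genes, 3343 (19%) were higher at 6 h and 3888 (22.1%) were lower. The median size of a called difference was 0.78 on the log2 scale, or 1.71-fold. A called difference of at least 2-fold was reached upward by 1033 genes (5.88%) and downward by 1513 (8.62%), and at least 4-fold by 301 and 336. The median over all genes tested was -0.01. In 7228 of the 7231 calls the libraries of the 2 times did not overlap, and in CPM they did not for 32.0% of all genes upward and 35.0% downward. With 2 libraries a side, an exact permutation test of a gene alone cannot pass the threshold, so each call rests on the spread shared across genes and times.

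The largest rises included genes for chemokines, matrix proteins and proteases. CCL2 (GRCh38 chromosome 17, 34255218 to 34257203), a chemokine that draws monocytes, went from 2.06 and 1.47 CPM at 3 h to 105.7 and 114.6 CPM at 6 h. Its log2 fold change was 5.95 ± 0.17 (SE, adjusted p = 1.12e-10), the quantity given in brackets for the genes that follow. RTL1, an imprinted gene derived from a retrotransposon, went from 1.1 and 0.78 CPM to 37.4 and 36.7 CPM (5.28 ± 0.21, adjusted p = 1.24e-09). COL5A3, a chain of type V collagen, went from 1.15 and 1.08 CPM to 33.2 and 29.6 CPM (4.81 ± 0.19). In each of these 3 genes the replicates at 6 h lay close together and far above both 3 h libraries. THBS1, the platelet granule protein thrombospondin, with FSIP1 on its opposite strand, went from 8.28 and 5.45 CPM to 146.1 and 151.8 CPM (4.43 ± 0.18, adjusted p = 1.38e-09), which is 21.6-fold. Its mean was 3.53 CPM at 0 h and reached 2640 CPM by 24 h and 4590 CPM by 72 h, so the step held only the start of its rise. DCLK1, a microtubule-associated kinase, went from 3.10 and 2.61 CPM to 76.7 and 70.1 CPM (4.68 ± 0.18), and the protease gene GZMB, for granzyme B, from 0.82 and 0.46 CPM to 15.9 and 16.1 CPM (4.61 ± 0.24). Whether reads were counted by strand is not given in the sources used here, and without it a gene cannot be told apart from a partner on the opposite strand. MMP10, a matrix metalloproteinase gene with WTAPP1 on its opposite strand, went from 0.93 and 0.78 CPM to 21.8 and 23.9 CPM (4.73 ± 0.29). The chemokine gene CCL4, which has a near-identical copy, completed the 8 largest rises with 0.33 and 0.46 CPM against 13.2 and 8.07 CPM (4.75 ± 1.26, adjusted p = 0.00989), and its call was lost without either 3 h replicate (adjusted p = 0.0736 without replicate 1 and 0.0532 without replicate 2).

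**Figure D1:**
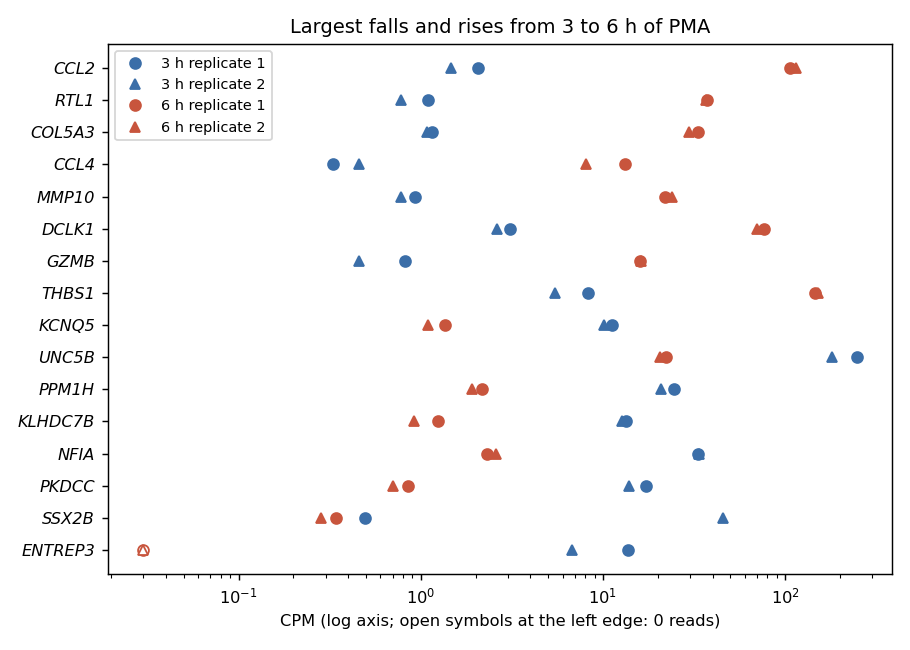
CPM on a log axis in each of the 2 libraries at 3 h (blue) and at 6 h (red) for the 8 genes with the largest rises (top) and the 8 with the largest falls (bottom), circles for replicate 1 and triangles for replicate 2. Open symbols at the left edge stand for 0 reads. The times do not overlap in any of the 16 genes; the 3 h libraries of SSX2B lie far apart, at 0.49 and 45.5 CPM.

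The promoters of 4 of the genes that rose are shown because they hold a match to a factor family that PMA is known to act through. In RefSeq promoters of GRCh38.p14, taken as 250 bases before to 50 after a gene's start, TGACTCA on either strand (the AP-1 motif) was present in 4.92% of all 27305 promoters and in 3.41% of the 12127 promoters of protein-coding genes tested. It was present in 14 of 211 promoters (6.64%) of genes that rose at least 4-fold and in 5 of 203 (2.46%) of genes that fell at least 4-fold. GCGGGGGCG or GCGTGGGCG on either strand (the EGR motif) was in 5.70% of all promoters, in 8.75% of those of protein-coding genes tested, in 13.7% of the first of these sets and in 6.40% of the second. Of the 8 largest rises 6 had a promoter in the table, with the AP-1 motif in 2 (DCLK1 and GZMB) and the EGR motif in 1 (THBS1). Of the 8 largest falls 5 had a promoter there, with 0 AP-1 matches and 0 EGR matches. EGR matches were not limited to rises: NAB1, a corepressor gene that fell, held 2, at 42 bases before its start and 13 after it. Of the other motifs searched on both strands, the E-box CACGTG was in 9.57% of promoters of protein-coding genes tested, 5.21% of those that rose at least 4-fold and 10.3% of those that fell at least 4-fold, and the cyclic AMP element TGACGTCA in 3.03%, 1.9% and 1.97%. CAPN2, the actin cytoskeleton gene with the largest rise, held 2 AP-1 matches, 178 and 143 bases before the start, and a CArG box, the site of serum response factor, 98 bases before it. A CArG box was in 1.15% of promoters of protein-coding genes tested and in 5 of 19 promoters (26.3%) of the actin cytoskeleton list. It was in 1.42% of promoters of genes that rose at least 4-fold and in 1.97% of those that fell at least 4-fold. The 250 bases before each start follow, 5′ to 3′ on the strand of the gene, with capitals for the AP-1 motif in DCLK1 (chr13:36131940-36132189, minus strand), GZMB (chr14:24634191-24634440, minus strand) and CAPN2 (chr1:223701347-223701596, plus strand), for the CArG box of CAPN2 as its last capitals, and for the EGR motif in THBS1 (chr15:39580829-39581078, plus strand).
DCLK1: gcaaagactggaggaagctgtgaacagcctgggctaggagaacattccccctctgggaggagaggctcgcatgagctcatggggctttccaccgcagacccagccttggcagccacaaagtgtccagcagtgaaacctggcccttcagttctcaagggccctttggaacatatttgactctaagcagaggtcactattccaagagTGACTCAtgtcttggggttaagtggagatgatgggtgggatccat
GZMB: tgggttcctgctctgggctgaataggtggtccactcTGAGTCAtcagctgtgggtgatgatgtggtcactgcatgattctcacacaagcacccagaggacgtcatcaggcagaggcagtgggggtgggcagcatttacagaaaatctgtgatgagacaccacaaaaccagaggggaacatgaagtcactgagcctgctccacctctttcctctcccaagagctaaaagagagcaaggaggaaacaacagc
CAPN2: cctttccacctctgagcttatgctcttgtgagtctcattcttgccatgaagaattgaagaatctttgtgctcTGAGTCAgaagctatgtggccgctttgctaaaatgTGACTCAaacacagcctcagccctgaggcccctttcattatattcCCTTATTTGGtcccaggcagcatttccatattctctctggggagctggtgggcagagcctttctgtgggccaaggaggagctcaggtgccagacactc
THBS1: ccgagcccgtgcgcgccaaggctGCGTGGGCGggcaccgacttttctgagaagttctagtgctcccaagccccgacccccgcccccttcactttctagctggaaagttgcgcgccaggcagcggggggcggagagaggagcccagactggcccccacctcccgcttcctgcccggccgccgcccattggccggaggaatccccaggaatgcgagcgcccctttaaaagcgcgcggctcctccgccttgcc
The RefSeq start of DCLK1 lies upstream of its GENCODE 29 model. The AP-1 match lay 45 bases before the start in DCLK1 and 214 before it in GZMB, and the EGR match 227 bases before the start of THBS1. A match describes these letters only, and binding of a factor was not measured here.

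The largest falls included genes for a transcription factor, a netrin receptor and a protein phosphatase. NFIA, a transcription factor of the nuclear factor I family that spans 597535 bases (chromosome 1, 60865259 to 61462793), went from 33.3 and 33.7 CPM to 2.31 and 2.58 CPM (-3.77 ± 0.13, adjusted p = 5.46e-10), 13.7-fold lower. UNC5B, a netrin receptor, went from 247.4 and 181.3 CPM to 22.3 and 20.6 CPM (-3.32 ± 0.16, adjusted p = 4.17e-09). PPM1H, a protein phosphatase, went from 24.5 and 20.8 CPM to 2.18 and 1.91 CPM (-3.47 ± 0.13). In deposited TPM, which scales reads by transcript length, the PPM1H mean went from 4.45 at 3 h to 1.37 at 6 h, a smaller fall. In CPM the replicates stood close together at 6 h in all 3 genes, and each 6 h library was far below both 3 h libraries. PKDCC, a secreted protein kinase, had risen from 0.80 CPM (0 h) to 15.5 CPM (3 h) and was at 0.85 and 0.71 CPM at 6 h (-4.31 ± 0.28), and at 0.40 CPM by 24 h. KLHDC7B (-3.60 ± 0.21) and the potassium channel gene KCNQ5 (-3.12 ± 0.19) fell as well. NFIA, PPM1H and KCNQ5 overlap short gene models or pseudogenes, to which some reads could have been given. ENTREP3 had 13.8 and 6.75 CPM before the step and no read in either 6 h library. Against a floor of 3 reads this was at least 80.1-fold lower (adjusted p = 1.83e-06). The means of ENTREP3 at all other times lay between 10.3 CPM (3 h) and 20 CPM (0 h), and 24 h had 19.6 CPM. Whether its reads were assigned to other transcripts in the 6 h libraries was not tested, and a loss of its message is therefore not established. SSX2B, a cancer-testis antigen gene with near-identical copies between which reads can be split, went from 0.49 and 45.5 CPM to 0.34 and 0.28 CPM (-6.19 ± 1.73, adjusted p = 0.0103). That call rests on 3 h replicate 2, without which the log2 fold change was -0.67 (adjusted p = 0.774), and it was also lost without either 6 h library (adjusted p = 0.0677 and 0.0786).

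The immediate-early genes moved in both directions. Of 23 tested, 8 rose (34.8%) and 7 fell (30.4%), with a median log2 fold change of 0.11. Here and for the lists below, the shares over all genes were 19% higher and 22.1% lower. NR4A2, an orphan nuclear receptor, was the exception in size, which went from 16.7 and 15.9 CPM to 228.3 and 233.3 CPM (3.82 ± 0.10, adjusted p = 1.01e-10). Of the 8 times 6 h had its highest mean, with 6.85 CPM before PMA and 118 CPM by 24 h. Of its relatives, NR4A3 fell (-0.62 ± 0.23, adjusted p = 0.043) and NR4A1 was not called (0.23, adjusted p = 0.199). Among the EGR zinc finger factors, EGR3 rose by 0.73 ± 0.12 and EGR2 by 0.48 ± 0.10, and EGR1 was at 3011 and 2746 CPM against 3266 and 3766 CPM and was not called (0.29, adjusted p = 0.246). FOSB, a subunit of AP-1 that overlaps ERCC1 on the opposite strand, fell from 709.8 and 605 CPM to 298.8 and 329.2 CPM (-1.07 ± 0.14, adjusted p = 4.25e-05), and stayed far above its 5.37 CPM at 0 h. DUSP1, a phosphatase of MAP kinases, fell by 0.88 ± 0.14 on the log2 scale, and JUN and JUNB were not called (0.11 each, adjusted p = 0.514 and 0.655). IER3 and CCN2, with at most 4 counted reads in any of the 4 libraries, were under the count filter. Here and in the other lists, members beyond the largest called rise and fall were chosen for naming after their values were seen.

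Genes that damp ERK and EGR output moved in both directions. Of 17 tested, 7 rose (41.2%) and 3 fell (17.6%), against 19% and 22.1% of all genes, with a median of 0.19. The 3 that fell were NAB1 and NAB2, corepressors that bind EGR proteins, and SPRED3, an inhibitor of the step from RAS to ERK. NAB1 went from 276.9 and 231 CPM to 102.7 and 91.2 CPM (-1.39 ± 0.17, adjusted p = 1.86e-05), and NAB2 from 246.4 and 186.5 CPM to 102.8 and 101.6 CPM (-1.08 ± 0.14). The rises included SPRY1, a Sprouty protein that restrains receptor signalling, from 0.44 and 0.10 CPM to 3.29 and 2.80 CPM (3.43 ± 0.53, adjusted p = 1.31e-04). The ERK phosphatase gene DUSP6 rose from 0.19 and 0.16 CPM to 1.28 and 1.74 CPM (3.06 ± 0.45). These 2 genes had few reads at either time, whereas SPRY2 rose from 44.1 and 38.1 CPM to 73.2 and 71.9 CPM (0.82 ± 0.11).

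NF-kB and inflammatory genes leaned upward. Of 23 tested, 15 rose (65.2%) and 2 fell, with a median of 0.58, which was 0.56 within replicate 1 and 0.68 within replicate 2. Beside CCL2 and CCL4, the inhibitors of apoptosis and of NF-kB itself were higher: BIRC3 by 2.13 ± 0.26 and NFKBIA, which holds NF-kB in the cytoplasm, by 1.43 ± 0.12. NFKBIA went from 31.6 and 27.3 CPM to 76.5 and 82.5 CPM, and the subunit genes NFKB1 (1.05 ± 0.11), RELA (0.74 ± 0.14) and REL (0.50 ± 0.16) rose too. CXCL8, a neutrophil chemokine, was already at 1137 and 1075 CPM at 3 h and rose to 1465 and 1459 CPM (0.40 ± 0.13, adjusted p = 0.0221). The 2 that fell were CD83, a surface protein of activated immune cells (-1.17 ± 0.21, adjusted p = 4.49e-04), and TNFAIP2 (-0.83 ± 0.13). TNF had 0 counted reads in the 4 libraries and was under the count filter.

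Growth factor and cytokine ligands moved in both directions, with the larger changes upward. Of 16 tested genes in this list, which also holds the SMAD inhibitors of the TGF-beta pathway, 8 rose (50%) and 5 fell (31.2%). The median was 0.53. INHBA, which encodes the subunit of activin A, went from 8.12 and 6.62 CPM to 150.7 and 166.6 CPM (4.42 ± 0.16, adjusted p = 6.98e-10). LIF rose from 4.99 and 3.82 CPM to 46.2 and 46.8 CPM (3.39 ± 0.16) and AREG, a ligand of the EGF receptor, from 130.1 and 121.7 CPM to 444.7 and 464.2 CPM (1.85 ± 0.09). AREG was at 4.47 CPM before PMA and at 65.5 CPM by 24 h, and INHBA went on to 769 CPM at 24 h. The falls were FGF2, which overlaps NUDT6 on the opposite strand (-1.44 ± 0.19, adjusted p = 3.92e-05), PDGFA (-0.91 ± 0.12), PDGFB (-0.77 ± 0.16), SMAD6 (-0.76 ± 0.15) and VEGFA (-0.59 ± 0.11).

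Matrix, adhesion and actin cytoskeleton genes rose more often than they fell. Of 22 tested matrix and adhesion genes, 12 rose (54.5%), 2 fell and 8 were not called. Their median of 1.35 became 0.80 with MMP3 and MMP9, which were at or under the floor of 3 reads at 3 h, set to their bounds. CD44, a receptor for hyaluronan, went from 258 and 291.7 CPM to 1553 and 1674 CPM (2.55 ± 0.11, adjusted p = 1.60e-09). ITGA2, the collagen-binding integrin chain, went from 2.22 and 2.48 CPM to 25.5 and 23.8 CPM (3.39 ± 0.11), and the collagenase gene MMP1 from 1.73 and 1.60 CPM to 23.6 and 25.3 CPM (3.87 ± 0.21). In these genes, too, the 6 h replicates were tight and clear of the 3 h libraries. The integrin genes ITGA6, ITGAV, ITGA5 and ITGB1 also rose, by 0.71 to 2.78 on the log2 scale. PLAU, the plasminogen activator urokinase, with C10orf55 on its opposite strand, moved against its list from 107.7 and 85.1 CPM to 24.3 and 24.9 CPM (-1.97 ± 0.15, adjusted p = 2.20e-07). Before the step it had risen from 11.7 CPM (0 h), and by 24 h it stood at 50.1 CPM.

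Of 23 actin cytoskeleton genes tested, 14 rose (60.9%), 2 fell and 7 were not called, with a median of 0.49. CAPN2, a calpain that cleaves adhesion proteins, went from 540 and 482.8 CPM to 1289 and 1250 CPM (1.31 ± 0.10, adjusted p = 2.83e-07). The actin genes ACTB (0.76 ± 0.12) and ACTG1 (0.92 ± 0.13), the myosin heavy chain gene MYH9 (0.96 ± 0.12) and the focal adhesion genes PXN (1.04 ± 0.13) and VCL (0.58 ± 0.09) all rose. ACTG1 fell back later, with means of 995 CPM (24 h) and 1170 CPM (72 h) against 5894 and 6016 CPM at 6 h. The 2 falls were TAGLN (-1.38), which overlaps PCSK7 on the opposite strand, and CNN2 (-1.31 ± 0.13), both actin-binding proteins of the calponin family.

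Lineage genes did not move as a block. Of 16 megakaryocyte and platelet genes tested, 6 rose (37.5%) and 3 fell (18.8%), against 19% and 22.1% of all genes. The list's median was 0.26, or 0.28 with PPBP and FLI1, at the floor of 3 reads, set to their bounds. The rises were in RUNX1 and in genes for surface and secreted platelet proteins. Beside THBS1, ITGB3, the integrin chain of the platelet fibrinogen receptor, went from 7.43 and 6.17 CPM to 55.0 and 57.2 CPM (3.04 ± 0.12, adjusted p = 1.38e-09). CD9 rose by 2.28 ± 0.14 and F2R, the thrombin receptor, by 1.98 ± 0.09. PPBP, a platelet chemokine at or under 3 reads per library at 3 h, was at least 4.83-fold higher. The partner chain of ITGB3, ITGA2B, fell from 57.8 and 47.4 CPM to 41.7 and 40.3 CPM (-0.36 ± 0.11, adjusted p = 0.0152). The transcription factors of the lineage moved apart: RUNX1 rose by 1.16 ± 0.08, while GFI1B (-1.34 ± 0.17) and NFE2 fell. NFE2, needed for platelet release, went from 7.62 and 6.82 CPM to 1.71 and 2.02 CPM (-1.95 ± 0.19, adjusted p = 2.34e-06). Untreated cells had 89.0 CPM, and the 72 h cells 53.2 CPM. GP1BA, GP9, PF4, SELP and TREML1 were among those under the count filter.

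Erythroid genes fell more often than they rose. Of 24 tested, 12 fell (50%) and 2 rose, with a median of -0.45, which was -0.65 within replicate 1 and -0.32 within replicate 2. GATA1 (chromosome X, 48786554 to 48794311), the master regulator of red cells and megakaryocytes, went from 63.3 and 46.2 CPM to 9.31 and 9.98 CPM (-2.50 ± 0.17, adjusted p = 1.13e-07), 5.67-fold lower. Its mean was 131 ± 33.8 CPM at 0 h (SD, n = 2), 9.64 ± 0.48 at 6 h, 84.3 ± 1.85 at 24 h and 136 CPM at 48 h, so 6 h was its low point among the times sampled. The rise of GATA1 from 6 h to 24 h, a comparison that shares the 6 h libraries, was 3.13 (adjusted p = 1.04e-08). KLF1, the erythroid Krüppel-like factor, fell from 4.17 and 4.11 CPM to 1.37 and 1.38 CPM (-1.59 ± 0.21), from 52.6 CPM at 0 h. The mitochondrial iron importer gene SLC25A37 fell from 106.7 and 95.7 CPM to 45.8 and 47.3 CPM (-1.12 ± 0.08, adjusted p = 2.17e-07). ALAS2, the erythroid enzyme that begins haem synthesis, with APEX2 on the opposite strand, fell by 0.53 ± 0.12 on the log2 scale and ANK1, an ankyrin of the red cell membrane, by 0.52 ± 0.10.

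The globin genes, which have near-identical copies, mostly did not pass the test over these hours. HBG1 and HBG2, for fetal globin chains, had log2 fold changes of -0.01 and 0.07 (adjusted p = 0.990 and 0.835), HBE1 -0.19, HBZ -0.44 and HBA1 -0.43, and of these genes only HBA2 was called (-0.47 ± 0.17, adjusted p = 0.0437). HEMGN, a nuclear protein of blood progenitors, moved against its list and rose from a mean of 18.5 ± 1.22 CPM to 81.5 ± 5.53 CPM (SD, n = 2; log2 fold change 2.14). TAL1 rose by 0.26 ± 0.09 (adjusted p = 0.0387). Blood transcription factors outside these lists numbered 20 tested, of which 5 rose (25%) and 7 fell (35%), against 19% and 22.1% of all genes. The list's median of -0.23 was -0.38 within replicate 1 and -0.03 within replicate 2. ERG went from 0.38 and 0.55 CPM to 7.68 and 7.68 CPM (4.04 ± 0.28, adjusted p = 1.18e-07), and RUNX2 rose by 0.91 ± 0.09. SPI1 (PU.1, a factor of myeloid cells) fell from 30.8 and 25.8 CPM to 8.24 and 9.84 CPM (-1.65 ± 0.19), and ETV6 (-1.47 ± 0.09), LDB1 (-1.54 ± 0.14), MYB (-1.20 ± 0.09) and LYL1 (-1.15 ± 0.17) fell as well. CEBPA, at or under 3 reads per library at 6 h, was at least 3.73-fold lower. GATA2 was not called (-0.30, adjusted p = 0.152).

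**Figure D2:**
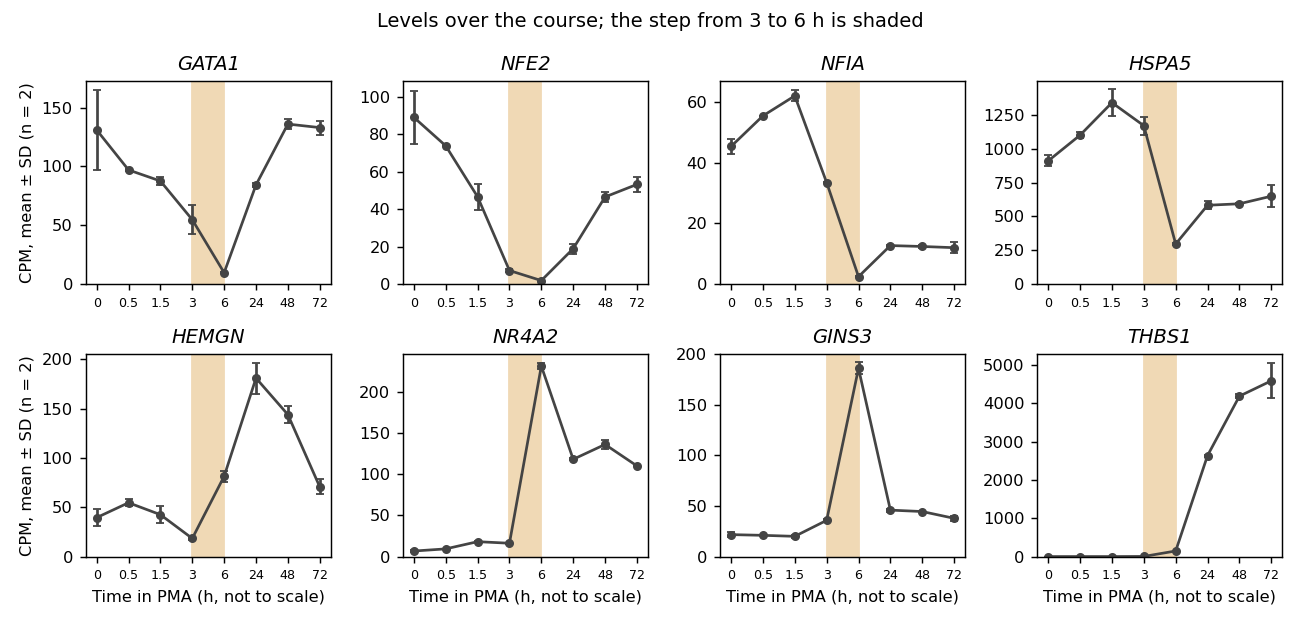
Mean CPM ± SD (n = 2 libraries per time) over the 8 times in PMA for 8 genes named in the text, with the step from 3 to 6 h shaded; times are evenly spaced and not to scale, and each panel has its own axis. GATA1, NFE2, NFIA and HSPA5 reach their lowest mean at 6 h, NR4A2 and GINS3 their highest, and HEMGN and THBS1 go on rising to 24 h.

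Cell cycle genes fell more often than they rose. Of 29 tested genes of G1/S and DNA replication, 15 fell (51.7%) and 4 rose, with a median of -0.33. CCND2, a D-type cyclin with an unnamed gene model overlapping it on the same strand, went from 263.4 and 231.8 CPM to 52.0 and 49.8 CPM (-2.28 ± 0.09, adjusted p = 1.38e-09). The primase gene PRIM1 fell by 1.96 ± 0.15 on the log2 scale and the helicase subunit gene MCM2 by 1.62 ± 0.13, while MCM3 and MCM4 were not called (0.04 and -0.01, adjusted p = 0.766 and 0.940). GINS3, a subunit of the same replicative helicase, moved against its list from 37.1 and 34.7 CPM to 181.7 and 190.0 CPM (2.37 ± 0.09, adjusted p = 1.24e-09). With counts from TPM scaled by gene length, GINS3 rose by less, 1.51 on the log2 scale. Its mean was 21.8 CPM before PMA and 46.0 CPM by 24 h, and the highest of the 8 times was 6 h. GINS1, GINS2 and GINS4, for the other subunits of its complex, were not called (-0.33, -0.24 and -0.20).

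Of 24 mitotic genes tested, 13 fell (54.2%) and 1 rose, with a median of -0.39. CCNB2, a mitotic cyclin, went from 101.9 and 96.9 CPM to 48.1 and 48.9 CPM (-1.04 ± 0.12, adjusted p = 9.00e-06), and the kinase genes PLK1 (-0.94 ± 0.12) and AURKA (-0.90 ± 0.09) fell with it. ANLN, an actin-binding protein of the cleavage furrow with MATCAP2 on the opposite strand, was the rise, from 90.7 and 88.7 CPM to 141.8 and 148.4 CPM (0.69 ± 0.10). Replication-dependent histone genes, whose messages mostly lack a poly(A) tail, had 10 falls and 1 rise among 52 tested (median -0.26), and their 19.2% of falls was below the 22.1% of all genes. The histone median was -0.43 within replicate 1 and -0.02 within replicate 2. H2AC25 was the largest called fall (-1.19 ± 0.14), and H2BC6 was the rise (0.56 ± 0.14). H3C4 had reads only in 3 h replicate 1 of the 4 libraries, at 2.17 CPM, and was not called (adjusted p = 0.198). Growth arrest genes had 5 rises (35.7%) and 4 falls (28.6%) among 14. Their median of -0.14 was -0.28 within replicate 1 and 0.03 within replicate 2. CDKN2D, a CDK inhibitor, rose by 1.22 ± 0.25 and CCNG1 fell by 0.93 ± 0.22 on the log2 scale. CDKN1A, the CDK inhibitor p21, was at 578.8 and 423.6 CPM against 443.7 and 426.2 CPM and was not called (-0.20, adjusted p = 0.275), having been at 13.6 CPM at 0 h.

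Genes of the amino acid response, which the factor ATF4 controls, made up the list with the lowest median. Of 21 tested, 16 fell (76.2%) and 1 rose, with a median of -1.21, which was -1.41 within replicate 1 and -0.99 within replicate 2. PSAT1, an enzyme of serine synthesis, went from 287.8 and 224.3 CPM to 40.6 and 34.1 CPM (-2.78 ± 0.16, adjusted p = 2.35e-08). ATF5 went from 859.6 and 798.4 CPM to 155.7 and 191.4 CPM (-2.26 ± 0.19) and MTHFD2, of mitochondrial folate metabolism, from 489.8 and 392.7 CPM to 117.2 and 102.3 CPM (-2.01 ± 0.15). The times did not overlap in any of these 3 genes. PCK2 (-2.45 ± 0.16), TRIB3 (-2.04 ± 0.15) and the transporter gene SLC7A5 (-1.25 ± 0.15) also fell. The message of ATF4 itself was at 216.8 and 201.1 CPM against 181.4 and 193.2 CPM and was not called (-0.16 ± 0.10, adjusted p = 0.239). CEBPB, also a factor of acute inflammation, moved against its list (0.96 ± 0.19, adjusted p = 0.00103).

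Cholesterol synthesis and uptake genes fell in 14 of 24 cases (58.3%) and rose in 2, with a median of -0.47. INSIG1, which retains the sterol-sensing complex in the endoplasmic reticulum, went from 2220 and 1843 CPM to 391 and 355 CPM (-2.45 ± 0.12, adjusted p = 4.17e-09), after 226 CPM at 0 h. The sterol reductase genes TM7SF2, which overlaps VPS51 on the same strand (-0.99 ± 0.15), and DHCR7 (-0.96 ± 0.13), and FDFT1, the squalene synthase (-0.94 ± 0.11), fell as well. The 2 rises were SQLE, the squalene epoxidase, from 393.5 and 367.8 CPM to 938.5 and 985.1 CPM (1.34 ± 0.10, adjusted p = 2.84e-07), and HMGCS1 (0.72 ± 0.13). SREBF2, for the factor that drives the pathway, was not called (-0.16, adjusted p = 0.338).

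**Figure D3:**
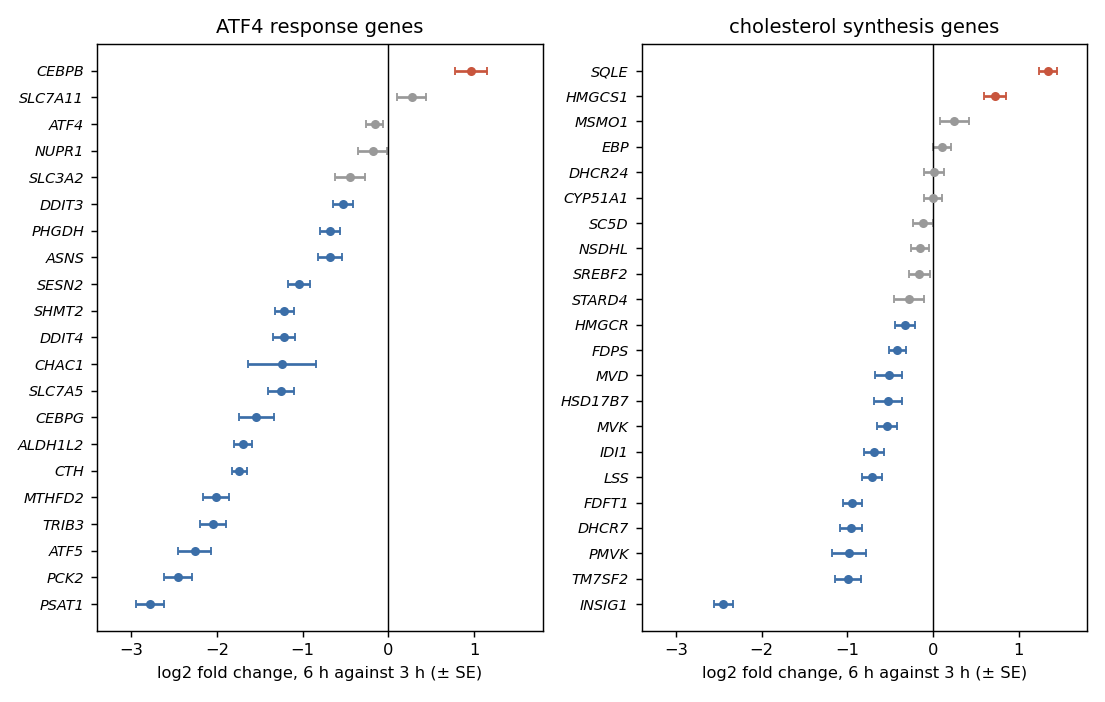
Log2 fold change ± SE at 6 h against 3 h for each tested gene of the ATF4 response (left) and for genes of cholesterol synthesis (right), red for called higher, blue for called lower and grey for not called. CEBPB is the only called rise on the left, and SQLE and HMGCS1 are the called rises on the right.

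Chaperone genes moved in both directions. Of 13 heat shock and chaperone genes tested, 3 rose (23.1%) and 6 fell (46.2%), against 19% and 22.1% of all genes, with a median of -0.20. HSPA5, the Hsp70 of the endoplasmic reticulum, went from 1221 and 1127 CPM to 290.5 and 302 CPM (-1.99 ± 0.11, adjusted p = 1.22e-08), its lowest level of the course. The mitochondrial HSPD1 (-0.61 ± 0.14) and HSPE1 (-0.94 ± 0.11) fell too, as did the cytosolic DNAJB1 (-0.63 ± 0.12), HSPB1 (-0.75 ± 0.23) and BAG3 (-0.56 ± 0.16). The rises were in the cytosolic HSPA8, from 3526 and 3588 CPM to 5068 and 5930 CPM (0.63 ± 0.11), HSPH1 and DNAJA1. HSP90B1, the other endoplasmic reticulum chaperone of the list, was not called (-0.20, adjusted p = 0.172). HSPA1A and HSPA1B had 0 counted reads in the 4 libraries and were under the count filter. Whether their reads lay in transcripts without an annotation match, which were not counted, was not tested.

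Of 76 nuclear oxidative phosphorylation genes tested, 25 fell (32.9%) and 0 rose, against 22.1% and 19% of all genes. Their median of -0.25 was -0.43 within replicate 1 and -0.14 within replicate 2. ATP5IF1, the inhibitor of the ATP synthase, went from 103.7 and 86.7 CPM to 49.8 and 51.5 CPM (-0.91 ± 0.10, adjusted p = 7.49e-06). NDUFA8, of complex I, went from 47.9 and 42.3 CPM to 24.5 and 24.0 CPM (-0.90 ± 0.10), and was at 55.8 CPM by 24 h. None of the 13 mitochondrially encoded genes was called, and their levels at 6 h differed between the replicates, as in MT-ND6 at 943.4 and 1202 CPM before the step and 799.8 and 2072 CPM after it. The median of the 13 was -0.39 within replicate 1 and 0.65 within replicate 2, and mitochondrial reads made up 2.53% and 4.45% of the 6 h libraries.

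Few ribosomal protein genes passed the test, while ribosome assembly genes moved in both directions. Of 75 cytosolic ribosomal protein genes tested, 1 rose and 2 fell (median -0.03). The 2 that fell were RPL39L, a tissue-restricted paralogue (-1.19 ± 0.17), and RPL13A (-0.44 ± 0.17, adjusted p = 0.0497). The rise was RPS4X, which overlaps PIN4 on the opposite strand (0.53 ± 0.16, adjusted p = 0.0153), and its call was lost without 3 h replicate 1 (adjusted p = 0.0917) and without 6 h replicate 2 (adjusted p = 0.156). Of 28 nucleolar ribosome biogenesis genes, 9 rose (32.1%) and 9 fell (32.1%), with a median of -0.02. POLR1B, a subunit of RNA polymerase I, rose by 0.85 ± 0.11, and the processing factor gene WDR12, which has other gene models on its opposite strand, fell from 96.6 and 97.0 CPM to 46.1 and 45.2 CPM (-1.08 ± 0.09, adjusted p = 3.88e-07).

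Zinc finger genes on chromosome 19 were called less often than all genes. The SR splicing factor and lysosome lists are short, and no list's shares were tested against those of all genes. Of 237 zinc finger genes on chromosome 19, 29 rose (12.2%) and 26 fell (11%), against 19% and 22.1% of all genes. Among those called with a mean of at least 1 CPM, the largest changes were in ZNF823 (1.85 ± 0.17) and ZNF480 (-1.88 ± 0.15). ZNF837, called lower as well, stood under that level, at 0.52 and 0.46 CPM against 0.13 and 0.11 CPM. Of 14 SR splicing factor genes, 2 rose (14.3%), SRSF4 (0.48 ± 0.09) and SRSF2 (0.38 ± 0.10), and 0 fell. Of 21 lysosome genes, 5 rose (23.8%) and 7 fell (33.3%). Their median of -0.06 was -0.24 within replicate 1 and 0.12 within replicate 2. CTSL, a cathepsin, went from 505.9 and 426.4 CPM to 1139 and 1220 CPM (1.34 ± 0.11, adjusted p = 7.03e-07), from 72.5 CPM at 0 h, and NPC1 rose by 0.65 ± 0.08. GAA, at 2.80 and 2.22 CPM against 1.71 and 1.24 CPM, was called lower (-0.78 ± 0.25, adjusted p = 0.022), and this call was lost without 3 h replicate 1 (adjusted p = 0.144), without 6 h replicate 2 (adjusted p = 0.204), with each library's GC trend removed (adjusted p = 0.0567), in a fit of the 3 h and 6 h libraries alone (adjusted p = 0.065), against a 1.5-fold change (adjusted p = 0.346) and at a limit of 0.01.

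**Figure D4:**
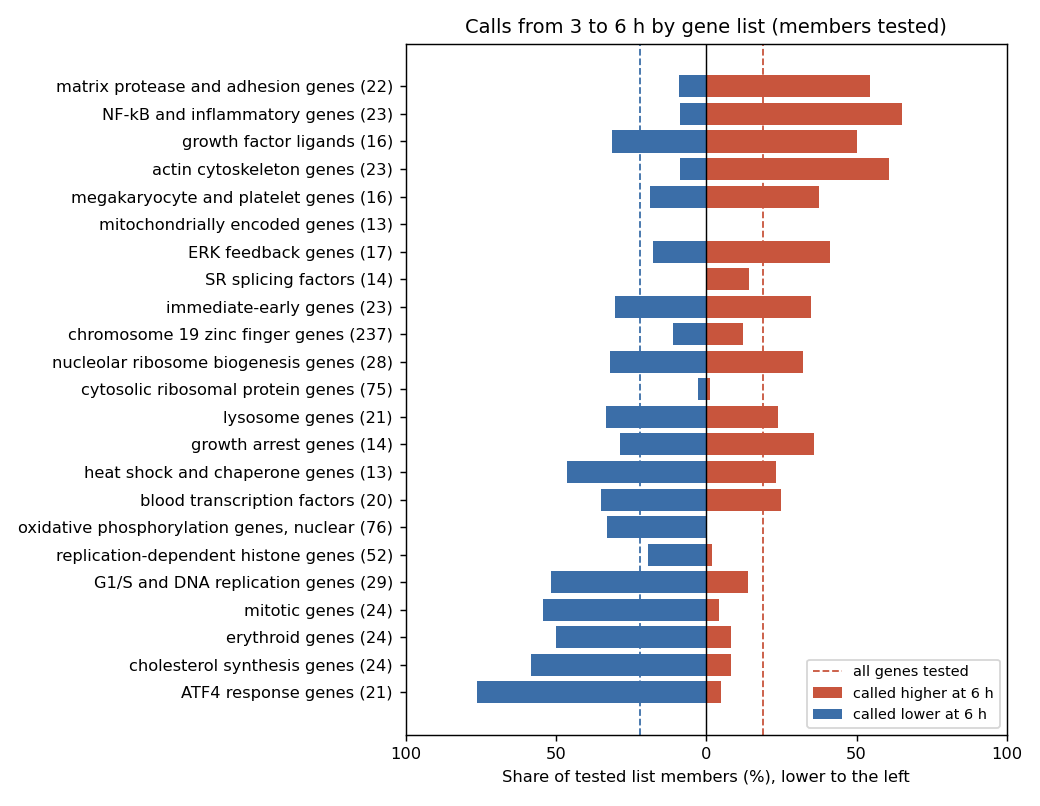
Share of the tested members of each of the 23 gene lists (number tested in brackets) that were called higher at 6 h than at 3 h (red, to the right) or lower (blue, to the left), in percent, ordered by the list's median log2 fold change. Dashed lines mark all genes tested, 19% higher and 22.1% lower; matrix, NF-kB and actin genes exceed the first line most, and ATF4, cholesterol, mitotic and replication genes the second.

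Most genes that rose in the step were also above their untreated level at 24 h, in a comparison that shares no library with it. Of the 3343 genes higher at 6 h than at 3 h, 2335 (69.8%) were also higher at 24 h than at 0 h and 240 (7.18%) were lower. That later comparison called 58.3% of all genes, 31.7% higher and 26.6% lower. These 2335 were 41.9% of the genes higher at 24 h. Of the 3888 genes lower at 6 h, 2012 (51.7%) were lower at 24 h than at 0 h, or 43.1% of the genes lower there, and 579 (14.9%) were higher. The comparison of 1.5 h with 0 h called 17.1% of all genes, 9.05% higher and 8.05% lower, and the shares here were closer to that background and mixed in direction. Of the genes higher in the step 407 (12.2%) had been higher by 1.5 h and 348 (10.4%) lower, and of the genes lower in the step 408 (10.5%) had been higher and 474 (12.2%) lower. Genes whose fall was followed by a rise between 6 h and 24 h, which shares the 6 h libraries, included SPI1 (-1.65, then 1.37) and WDR12 (-1.08, then 0.96). In CCND2 (-2.28, then -0.88) and PSAT1 (-2.78, then -2.08) a further fall followed.

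Genes that rose had a longer median span, and genes that fell a higher median GC content, than all genes. Over 15426 protein-coding genes tested, the median span from start to end of the gene was 32.2 kb, against 43.7 kb in the 3150 that rose and 28.9 kb in the 3668 that fell. Among those changed at least 2-fold the medians were 51.2 kb for rises and 26.6 kb for falls. Of genes under 5 kb, 14.2% rose and 23.7% fell, of genes of 100 to 200 kb 29.5% rose and 20% fell, and of genes over 200 kb 22.2% rose and 22.7% fell. Median transcript GC content was 49.5% in all protein-coding genes tested, 48.1% in rises and 51.5% in falls. The log2 fold change of the step correlated with GC at Pearson r = -0.12 across 9975 genes, which are not independent replicates and share their libraries, with r = -0.19 within replicate 1 and -0.03 within replicate 2. The difference between the 3 h replicates had an r of -0.38 with GC and that between the 6 h replicates 0.07. With the gene's span, the step had a Spearman correlation of 0.10 across the same genes, 0.16 within replicate 1 and 0.03 within replicate 2, and 0.05 once the GC trend was removed. The difference between the 3 h replicates (replicate 2 minus 1) had a larger one, 0.32, and that between the 6 h replicates -0.06. With the GC trend of each library removed, 19.7% of genes under 5 kb and 33.6% of genes of 100 to 200 kb rose, and 23.7% and 23.3% fell. No other property of the libraries was tested against the length pattern.

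**Figure D5:**
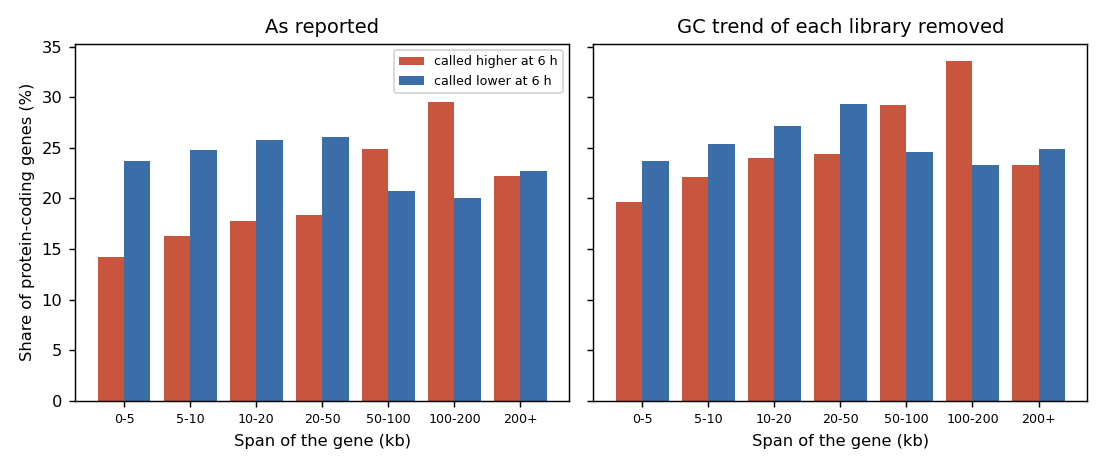
Share of protein-coding genes (percent) called higher (red) or lower (blue) at 6 h than at 3 h, by the span of the gene in kb, as reported (left) and with the GC trend of each library removed (right). The share of rises climbs from 14.2% under 5 kb to 29.5% at 100 to 200 kb on the left, from 19.7% to 33.6% on the right, and is lower beyond 200 kb in both panels.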

How the data were processed

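RNA of K562 cells was depleted of ribosomal RNA and sequenced at 8 times of PMA, 2 libraries each, per the labels' protocols. Salmon (no version) and Trim Galore 0.4.3 are named per the submitters' processing notes, as are hg19 and hg38 with no role, and strand is not given in the sources used here. Per the file headers, the authors deposited an estimated count of reads and a TPM value for each of 177456 transcripts. The deposited TPM values were used to derive counts scaled by gene length, as an alternative, and were summed per gene for the means of PPM1H. Of the transcripts, 167027 (94.1%) matched GENCODE 29 (GRCh38), the source of gene coordinates, and the rest held 3.01 to 3.75% of a library's reads. A gene whose transcripts lacked a match would show few or no reads here. This was not tested for the genes under the count filter, whose expression therefore stays unknown. Estimated counts were summed per gene, rounded, and tested in edgeR 4.0.16 (R 4.3.3; TMM factors, filterByExpr, quasi-likelihood F-test, all 16 libraries in 8 groups), a gene being called below an adjusted p of 0.05 (Benjamini-Hochberg). CPM uses the TMM-scaled library size, fold changes a prior count of 0.125, and the SE is the unshrunk log2 fold change over the square root of F. Counts were simulated for 6 h against 3 h with 200 of 17048 genes changed, drawn from better-covered genes only, and all others held unchanged. There 85% of 2-fold and 96% of 4-fold changes were recovered, with 7 of 188 calls false. These rates do not cover genes with few reads or a step with as many calls as this one. A floor of 3 reads was 0.0823 to 0.128 CPM in these 4 libraries, and it covers counting error only.

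Named genes were the 8 largest called rises and 8 largest called falls that code for protein, average 5 CPM or more, and have non-overlapping libraries, and no time with 0 reads in a library and at least 10 in its replicate. From each of 23 gene lists the called members with the largest rise and largest fall at a mean of at least 1 CPM were added, under the same conditions. Some items that the lists or this rule would give are not reported here. The comparison, lists and rules were chosen with earlier results of these data known. The alternatives tried were DESeq2's size factors, no TMM scaling (total counts only), DESeq2 1.42.0, other filters, counts from TPM, a replicate block, a fit of these 4 libraries, GC removal, stricter thresholds and leaving out each library.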

Additional observations from a re-analysis of the deposited data

How the results depend on the processing

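Of 55 genes named by rule, 45 kept their call and direction under each of the 15 alternatives in which they were tested. Over the named genes 800 results kept their call and 22 lost it. A gene that an alternative's filter removed, as ENTREP3 with at least 10 counts in every library, was not counted there. Medians of gene lists moved by less than the spread between replicates in 308 cases, by more in 42 and changed sign in 1. No gene called under an alternative and as reported changed sign. Calls numbered 7231 as reported and 6154 to 8408 under other scalings, filters, tools and fits, with the lowest for counts from TPM scaled by gene length and the highest with the GC trend removed. With an adjusted p under 0.01 there were 5354, and 508 genes rather than 1637 were called both here and at 1.5 h against 0 h. Tested against a 1.5-fold change, 2646 were called, 1153 higher and 1493 lower, since that test asks for a larger difference. Leaving out each library gave 5482 to 6591 calls, 2668 to 3066 higher and 2814 to 3721 lower, and 2317 to 2601 of at least 2-fold against 2546. Scaling to total counts moved the median of all genes from -0.01 to -0.09 and the share of calls that were higher from 46.2% to 38.7%. The median of the nucleolar genes turned from -0.02 to 0.119 with counts from TPM scaled by gene length; the cause was not tested. Replicate numbers were not taken as a pairing, since not every pair of times met the limit: same-numbered deviations correlated above 0.1 in 14 of 28 pairs of times (-0.118 to 0.211), and at 0.109 for 3 h with 6 h. The mean fragment length implied by the deposited effective lengths was longer in replicate 2 at every time but 0 h. A replicate block gave 7580 calls, 7183 of them among the 7231. The median of matrix and adhesion genes ranged from 0.894 (at least 10 counts in every library) to 1.39 (GC trend removed). Depth limits genes near the floor of 3 reads, such as MMP3, MMP9 and FLI1.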
